A study of Mus musculus with 23 samples.

Results

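Chemokines are small secreted or membrane-tethered proteins that guide cells through receptors coupled to G proteins. In the brain, fractalkine (Cx3cl1) is made mainly by neurons as a tethered protein with a mucin stalk, and its receptor Cx3cr1 is carried by microglia and other tissue macrophages. Cxcl12 acts on Cxcr4 and on the scavenger receptor Ackr3, Cxcl16 is a second tethered chemokine whose receptor is Cxcr6, and Ccl3, Ccl4 and Ccl12 are inflammatory ligands made by activated myeloid cells. Described here are 8 genes of this kind, taken by symbol from the deposited count table: Cx3cr1, Cx3cl1, Ccl3, Ccl4, Ccl12, Cxcl12, Cxcl16 and Cxcr4. All 8 were among the 22310 named genes of the table and among the 16209 genes that passed the filter on low counts. The receptor Cx3cr1 is set against its ligand Cx3cl1 throughout.

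RNA-seq was done on brain tissue of C57BL/6J mice of 2 genotypes, wild type (WT) and Csf1R-G793A. The latter carry a substitution in CSF1R, the growth factor receptor kinase on which microglia depend. Mice of each genotype were fed for 14 days with control chow, with chow holding PLX3397 at 290 mg/kg or with chow holding PLX5622 at 1200 mg/kg, and both compounds inhibit this receptor. There were 3 libraries of WT mice on control chow and 4 in each of the other 5 groups, 23 in all. The labels give no age, sex, brain region or batch and do not say that each library is a separate mouse, so the spread behind each p-value may in part be technical.

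Libraries held 26.31 M to 48.17 M counts (M, mega-counts). Csf1r itself, a check of the labelled receptor although a substitution need not alter its transcript, stood at 93.8 ± 1.23 counts-per-million (CPM, mean ± SD, n = 3) in WT controls and 81.4 ± 4.69 CPM (n = 4) in G793A controls. It stood at 23.3 ± 5.12 CPM with PLX3397 and 12.2 ± 4.56 CPM with PLX5622 in WT mice (n = 4 each), and at 74.4 ± 4.24 and 71.6 ± 8.59 CPM in G793A mice. Summed over 12 microglia markers, WT controls held 376 to 404 CPM, WT mice on PLX3397 94.0 to 133 CPM and WT mice on PLX5622 56.7 to 103 CPM. The G793A groups held 325 to 403 CPM on control chow, 287 to 339 CPM on PLX3397 and 274 to 330 CPM on PLX5622. None of the 12 markers was at 0 in any library, and markers of neurons, astrocytes and endothelium were present in all libraries. Of the meningeal, choroid plexus, cerebellar and pituitary markers, Cbln3 reached 221 CPM in a G793A PLX5622 library (group median 1.17 CPM). Prl reached 66.1 CPM in a WT PLX5622 library (group median 3.50 CPM). The part of dissection in the values below was not tested.

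Changes are log2 fold changes ± SE from one edgeR quasi-likelihood model of all 23 libraries. The threshold was an adjusted p of 0.05, by the Benjamini-Hochberg method over the 16209 genes. Of the 8 genes, 1 fell with PLX3397 in WT mice, where 1.52% of all genes tested passed, and 1 fell with PLX5622 in WT mice, where 1.66% passed. It was Cx3cr1 in both. The other 7 genes did not pass in either comparison. Both comparisons share the 3 WT control libraries.

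Cx3cr1 had 55.9, 53.0 and 54.2 CPM in the 3 WT controls. With PLX3397 the 4 WT libraries had 15.9, 14.98, 12.7 and 9.36 CPM, and with PLX5622 they had 8.15, 2.96, 7.81 and 5.50 CPM. All 8 inhibitor libraries of WT mice therefore lay below every control, and every PLX5622 library lay below every PLX3397 library. Cx3cr1 fell with PLX3397 by 2.04 ± 0.20 on the log2 scale, to 24.3% of the control level (adjusted p = 1.78e-06). With PLX5622 it fell by 3.14 ± 0.21, to 11.3% of the control level (adjusted p = 6.91e-09). In bulk tissue, fewer cells of a type and less transcript per cell cannot be told apart, and the microglia markers moved with Cx3cr1: 11 of the 12 fell with each inhibitor, with a median over the list of -2.18 for PLX3397 and -3.01 for PLX5622, against 0.01 over all genes in both comparisons. The marker that did not pass was Sall1, a transcription factor of microglia. Markers of border-associated macrophages, which also carry Cx3cr1, moved with it too: 9 of 10 fell with PLX3397 (median -1.98) and 7 of 10 with PLX5622 (median -1.78). Their summed level was 27.3 to 31.8 CPM in WT controls, 5.77 to 7.39 CPM in WT mice on PLX3397 and 5.75 to 7.52 CPM in WT mice on PLX5622. The part of each cell type in the fall of Cx3cr1 was not tested.

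In G793A mice Cx3cr1 had 42.0, 48.7, 55.5 and 49.1 CPM on control chow. It had 38.5, 49.8, 42.9 and 44.8 CPM with PLX3397, and 44.8, 37.4, 48.4 and 44.3 CPM with PLX5622. These 3 groups overlapped one another. Against G793A controls the log2 fold change was -0.15 ± 0.18 with PLX3397 (adjusted p = 0.775) and -0.16 ± 0.18 with PLX5622 (adjusted p = 0.708). The 95% intervals ran from -0.52 to 0.22 and from -0.53 to 0.22.

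Against WT controls, both G793A inhibitor groups lay lower without overlap, at -0.31 ± 0.19 with each inhibitor, but neither difference passed (adjusted p = 0.774 and 0.797). The microglia markers were below WT controls there as well, with a median of -0.38 over the 12 in each group and 0 of them past the threshold. G793A controls differed from WT controls in Cx3cr1 by -0.16 ± 0.19 (adjusted p = 0.805), and their values overlapped. G793A mice held 1.73 ± 0.19 more Cx3cr1 on the log2 scale than WT mice on PLX3397 (adjusted p = 1.29e-05) and 2.83 ± 0.20 more on PLX5622 (adjusted p = 2.23e-08). The inhibitor effect itself differed between genotypes, by 1.89 ± 0.27 for PLX3397 (adjusted p = 0.000695) and by 2.98 ± 0.28 for PLX5622 (adjusted p = 1.77e-06).

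**Figure D1:**
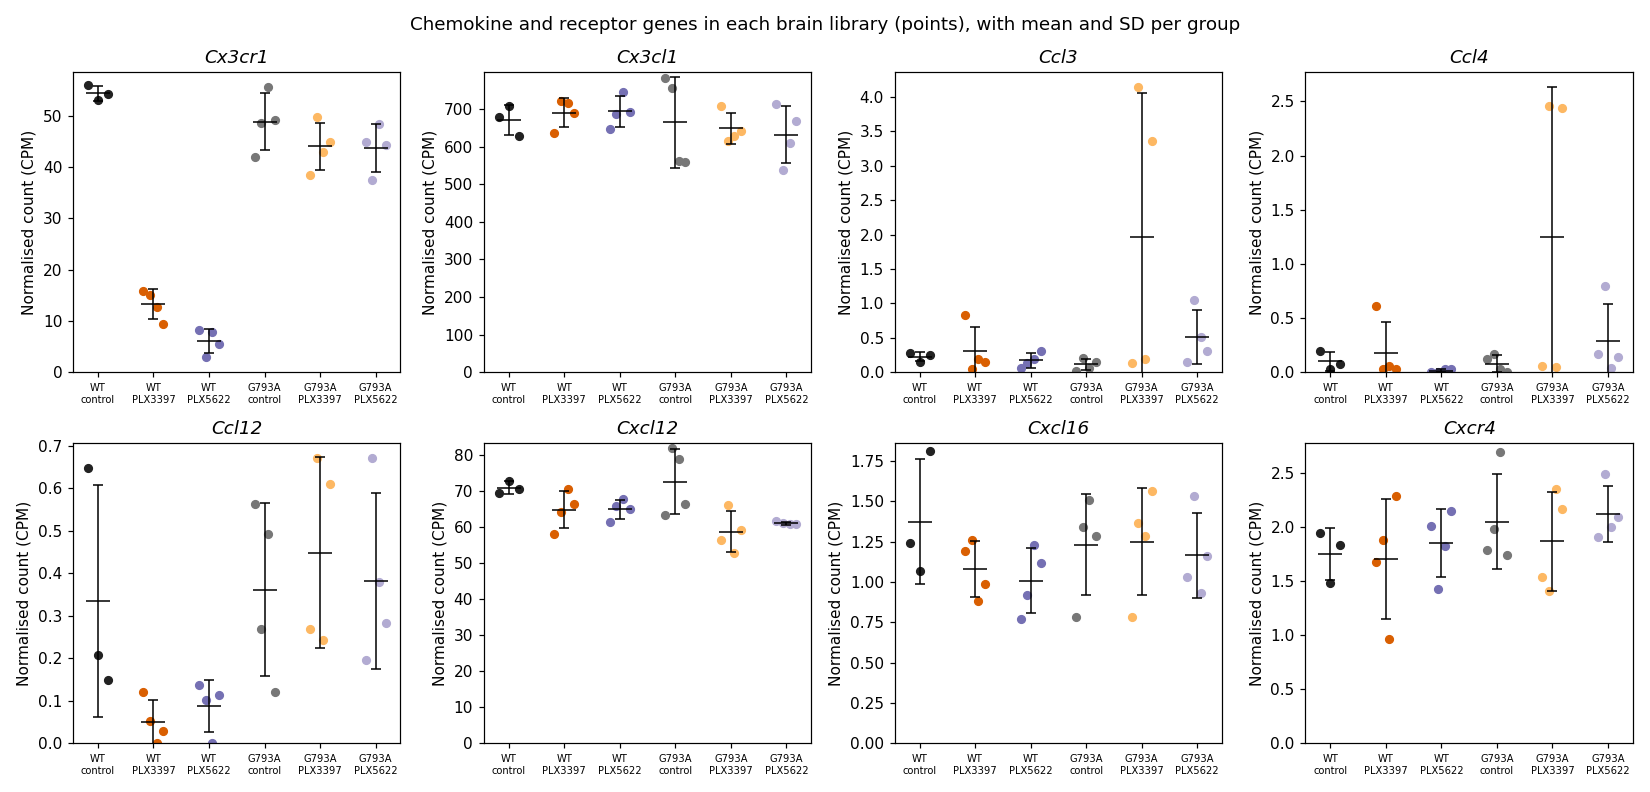
Normalised counts (CPM, vertical axes, each starting at 0) of the 8 genes in each of 23 brain libraries (points), by genotype and chow, with bars for the mean and SD of each group. Cx3cr1 is lower in both WT inhibitor groups, the groups overlap in Cx3cl1, and Ccl3 and Ccl4 stand high in 2 libraries of G793A mice on PLX3397.

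Cx3cl1, the ligand, had 678, 707 and 629 CPM in WT controls. It had 636, 720, 716 and 690 CPM with PLX3397 in WT mice and 648, 686, 746 and 693 CPM in WT mice on PLX5622. The 3 groups overlapped. The log2 fold change was 0.04 ± 0.10 with PLX3397 (95% interval -0.18 to 0.26, adjusted p = 0.962) and 0.05 ± 0.10 with PLX5622 (-0.17 to 0.26, adjusted p = 0.974). Both intervals lay far from the changes seen for Cx3cr1, and neither excludes a small shift.

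In G793A mice Cx3cl1 had 783, 756, 562 and 559 CPM on control chow, 708, 614, 629 and 642 CPM on PLX3397 and 712, 538, 610 and 667 CPM on PLX5622. The values overlapped those of WT mice in every group. The 4 G793A control libraries fell into a higher and a lower pair. The higher pair also had the larger total counts (40.53 M and 48.17 M) and the lower pair the smaller (30.69 M and 32.33 M), and the part of depth in this spread was not tested. In no comparison did Cx3cl1 pass.

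Set against each other within a library, the ligand count was 11.6 to 13.3 times the receptor count in WT controls. It was 40.05 to 73.6 times the receptor count in WT mice on PLX3397 and 79.5 to 231 times in WT mice on PLX5622. The 3 WT groups did not overlap. In G793A mice it was 10.1 to 18.6 times the receptor count on control chow, 12.3 to 18.4 times on PLX3397 and 12.6 to 15.9 times on PLX5622, and these ranges overlapped. The mean log2 ratio of receptor to ligand was -3.63 ± 0.10 (SD, n = 3) in WT controls, -5.73 ± 0.37 with PLX3397 and -6.93 ± 0.67 with PLX5622 (n = 4 each). In G793A mice it was -3.76 ± 0.40, -3.89 ± 0.24 and -3.85 ± 0.14 in the same order of chows. The ratio is a description with no test. Its absolute level also reflects the lengths of the transcripts counted.

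**Figure D2:**
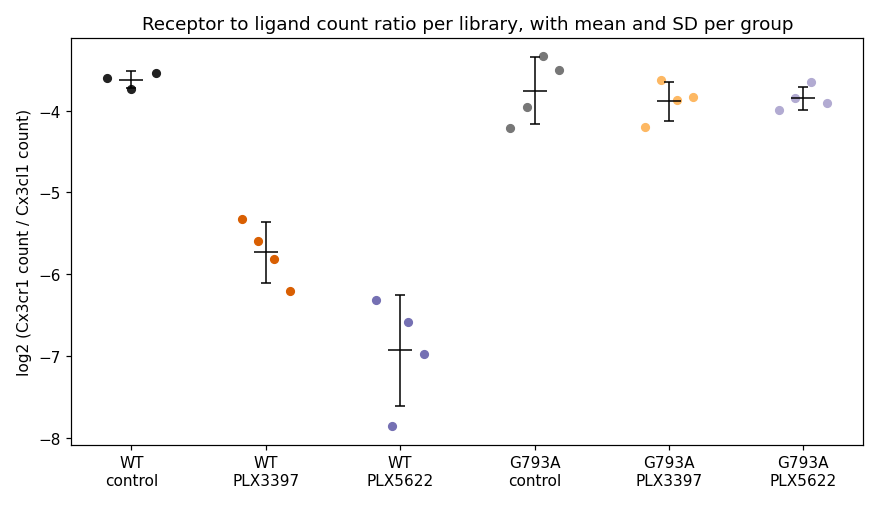
Log2 of the Cx3cr1 count divided by the Cx3cl1 count (vertical axis) in each library (points), with bars for the mean and SD per group. WT mice on PLX3397 sit between -6.20 and -5.32 and WT mice on PLX5622 between -7.85 and -6.31, below all other libraries.

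Compared per kilobase of the longest protein-coding transcript, Cx3cl1 was the most abundant of the 8 in WT controls at 203 ± 11.9 CPM per kb (n = 3). Cxcl12 at 12.6 ± 0.30 and Cx3cr1 at 12.1 ± 0.32 CPM per kb came next, and annotated transcripts of 1878 to 5627 bases for Cxcl12 and 3156 to 4493 bases for Cx3cr1 do not settle their order. The 5 other genes were scarcer, with 0.972 CPM per kb for Cxcr4, 0.624 for Ccl12, 0.509 for Cxcl16, 0.295 for Ccl3 and 0.152 for Ccl4. Spread between libraries was wide for the scarcest: the SD was 0.508 for Ccl12, 0.0904 for Ccl3 and 0.132 for Ccl4, so the order of Ccl12, Cxcl16, Ccl3 and Ccl4 is not resolved beyond that spread. In WT mice on PLX5622, Cx3cr1 was at 1.36 ± 0.53 and Cxcl12 at 11.6 ± 0.48 CPM per kb (n = 4 each).

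The promoter sequences of the genes whose levels are contrasted are shown for reference. They are RefSeq sequences on build GRCm38.p6, each with 250 bases before and 50 after the annotated start, 5′ to 3′ on the strand of the gene. Of the 8 genes, 6 had an entry in the table. The Cx3cr1 window lies at chr9:120068247-120068546 on the minus strand, that of Cx3cl1 at chr8:94771930-94772229 on the plus strand, that of Ccl12 at chr11:82101595-82101894 on the plus strand and that of Ccl3 at chr11:83649329-83649628 on the minus strand. Capitals mark the core motif of ETS factors such as the macrophage factor PU.1, on either strand, and the TATA box.
Cx3cr1: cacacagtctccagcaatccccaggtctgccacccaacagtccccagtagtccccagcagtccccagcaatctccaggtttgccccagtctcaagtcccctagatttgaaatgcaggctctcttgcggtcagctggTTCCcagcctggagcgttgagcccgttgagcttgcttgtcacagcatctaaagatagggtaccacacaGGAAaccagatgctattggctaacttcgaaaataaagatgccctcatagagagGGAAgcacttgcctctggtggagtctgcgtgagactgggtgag
Cx3cl1: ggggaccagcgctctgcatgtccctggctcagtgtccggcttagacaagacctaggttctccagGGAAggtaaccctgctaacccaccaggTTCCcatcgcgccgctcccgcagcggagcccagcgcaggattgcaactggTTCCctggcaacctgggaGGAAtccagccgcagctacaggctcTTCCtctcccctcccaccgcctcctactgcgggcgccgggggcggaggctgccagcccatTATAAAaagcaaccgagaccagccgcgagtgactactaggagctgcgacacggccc
Ccl12: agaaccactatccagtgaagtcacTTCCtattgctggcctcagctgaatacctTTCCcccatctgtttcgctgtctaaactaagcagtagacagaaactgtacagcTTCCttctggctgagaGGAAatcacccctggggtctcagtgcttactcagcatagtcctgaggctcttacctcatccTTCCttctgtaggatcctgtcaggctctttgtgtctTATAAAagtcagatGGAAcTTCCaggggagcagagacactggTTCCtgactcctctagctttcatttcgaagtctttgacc
Ccl3: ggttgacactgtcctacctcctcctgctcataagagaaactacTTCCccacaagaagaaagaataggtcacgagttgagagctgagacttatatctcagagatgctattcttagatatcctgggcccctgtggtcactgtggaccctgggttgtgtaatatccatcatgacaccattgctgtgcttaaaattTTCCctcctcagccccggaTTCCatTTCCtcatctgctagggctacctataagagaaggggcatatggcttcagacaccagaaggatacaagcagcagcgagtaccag

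Over both strands, the ETS core GGAA occurred 3 times in the Cx3cr1 window, 5 times in that of Cx3cl1, 8 times in that of Ccl12 and 4 times in that of Ccl3. As 96% of 32851 promoters of the same length hold it and the median count is 3, it does not tell these genes apart. The TATA box TATAAA was found in 13.6% of promoters. It occurred once in the windows of Cx3cl1, at position -6, and Ccl12, at position -31 from the start, and not in those of Cx3cr1 and Ccl3. The GC box GGGCGG (35.7% of promoters) was in the Cx3cl1 window only among these 4. A longer PU.1-type site, GAGGAAGT (3.2% of promoters), the AP-1 site TGACTCA (5.2%) and the CRE core TGACG (20.8%) were in none of the 4. A match is a description of letters, not a bound site.

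Ccl12, a ligand of Ccr2, was rare. Its counts were 23, 7 and 6 in WT controls, 4, 2, 0 and 1 in WT mice on PLX3397 and 5, 3, 0 and 4 in WT mice on PLX5622. Each WT inhibitor library lay below each WT control, although a count of 0 allows up to 3 counts in that library for counting error alone. The log2 fold changes of -2.66 ± 0.81 with PLX3397 (adjusted p = 0.143) and -1.84 ± 0.74 with PLX5622 (adjusted p = 0.418) did not pass. In G793A mice the counts were 23, 13, 15 and 4 on control chow, 10, 29, 10 and 16 on PLX3397 and 8, 21, 11 and 10 on PLX5622. All 8 G793A inhibitor libraries were above all 8 WT inhibitor libraries.

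On PLX3397, Ccl12 was higher in G793A than in WT mice by 3.07 ± 0.74 on the log2 scale and passed narrowly (adjusted p = 0.0405). With it, 2 of the 8 genes passed there, Cx3cr1 and Ccl12, where 0.938% of all genes did. On PLX5622 the difference was 2.01 ± 0.69 (adjusted p = 0.402), so 1 of the 8 passed, where 1.09% of all genes did. In the test of the difference between genotypes in the inhibitor effect, Ccl12 did not pass (2.95 ± 0.98 for PLX3397, adjusted p = 0.493), and 1 of the 8, Cx3cr1, passed for each inhibitor, where 0.555% of all genes passed for PLX3397 and 0.808% for PLX5622. The Ccl12 call on PLX3397 ended when any of WT PLX3397 replicates 2, 3 or 4 or G793A PLX3397 replicates 2 or 4 was left out (adjusted p between 0.1102 and 0.204), and with limma-voom (0.0832). When only the compared groups were fitted, Ccl12 did not pass the filter on low counts here, nor in any comparison within WT mice. It was thus tested only through libraries where it was high, mostly those of G793A mice, so this call is weak ground for a difference.

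Ccl3 and Ccl4 are closely related macrophage inflammatory proteins, and Ccl3 is a ligand of Ccr1. Ccl3 counts were 10, 5 and 10 in WT controls, 27, 2, 7 and 5 in WT mice on PLX3397 and 2, 4, 6 and 11 in WT mice on PLX5622. They were 1, 10, 2 and 5 in G793A controls, 5, 179, 8 and 88 in G793A mice on PLX3397 and 6, 33, 15 and 11 in G793A mice on PLX5622. High counts thus sat in single libraries, not in whole groups. Ccl4 followed the same libraries, with 20 in WT PLX3397 replicate 1, 106 and 64 in G793A PLX3397 replicates 2 and 4, and 25 in G793A PLX5622 replicate 2. No other library had more than 8 counts of Ccl4, nor more than 15 of Ccl3.

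In G793A mice on PLX3397 against G793A controls, Ccl3 was at 4.02 ± 1.00 (adjusted p = 0.320) and Ccl4 at 3.73 ± 1.15 (adjusted p = 0.350), and the groups overlapped. The other 2 G793A PLX3397 libraries had 5 and 8 counts of Ccl3 and 2 and 2 of Ccl4, within the range of the controls. Without the 4 high libraries, Ccl3 in G793A mice on PLX3397 stood at 0.49 ± 0.72 against G793A controls (adjusted p = 0.883) and at -0.45 against WT controls, and Ccl4 no longer passed the filter. Ccl4 was thus tested only through those libraries. As these 4 hold the highest counts of both genes, leaving them out lowers Ccl3 by construction. The omission keeps 2 G793A PLX3397 libraries and shows only which libraries held the counts.

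The same 4 libraries stood apart in Fos and Npas4. These are immediate early genes, which neurons switch on with activity or during handling of tissue. Summed over the list of such genes, G793A PLX5622 libraries reached at most 1283 CPM and a WT control reached 1326 CPM. The full list thus did not set all 4 apart. Fos was at 262 CPM in WT PLX3397 replicate 1, 287 and 369 CPM in G793A PLX3397 replicates 2 and 4, and 122 CPM in G793A PLX5622 replicate 2, against 16.6 to 63.3 CPM in the other 19. Npas4 was at 152, 185, 214 and 139 CPM in these 4 and at 3.24 to 26.7 CPM in the others. The part of activity or handling in the Ccl3 and Ccl4 values was not tested. Over the 23 libraries, the genes closest in pattern to Ccl3 were Zfp36, Npas4 and Fos, with root-mean-square differences of 1.01, 1.07 and 1.13 on the log2 scale. Those closest to Ccl4 were Npas4, Fos and Fosb, at 1.15, 1.17 and 1.24. The SDs of Ccl3 and Ccl4 themselves were 1.56 and 1.85 on this scale, so the likeness was loose. These genes were singled out after their values were seen.

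**Figure D3:**
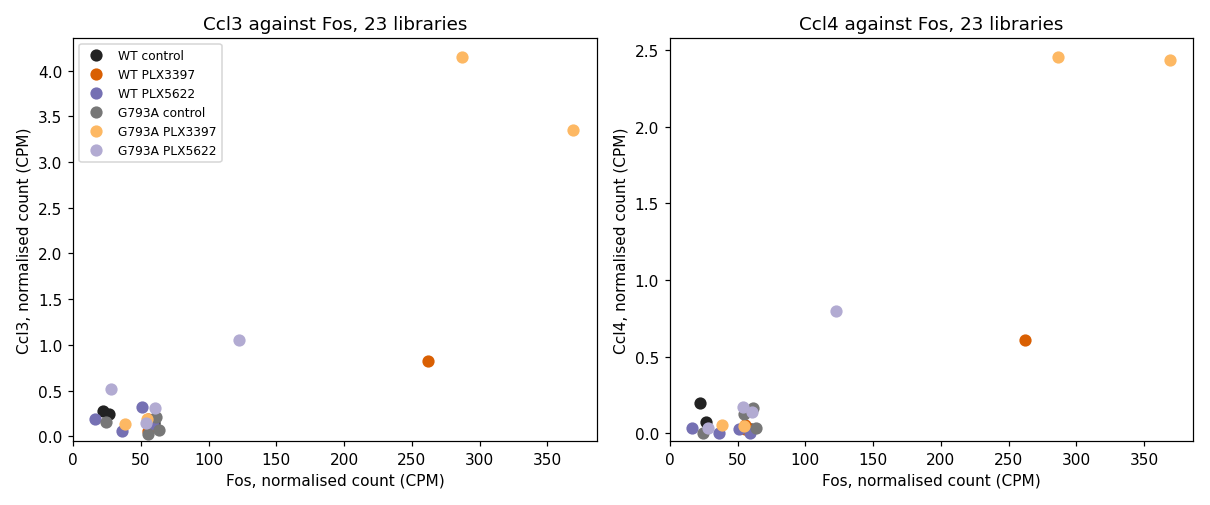
Ccl3 (left) and Ccl4 (right) in CPM on the vertical axis against Fos in CPM on the horizontal axis, 1 point per library, coloured by group. The 4 libraries above 100 CPM of Fos hold the highest Ccl3 and Ccl4, and the other 19 lie near the origin.

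Cxcl12, which guides neuronal precursors and is made in the brain by neurons and by cells of vessels and meninges, had 69.5, 72.9 and 70.8 CPM in WT controls. It had 58.3, 64.4, 70.8 and 66.4 CPM in WT mice on PLX3397 and 61.4, 65.9, 67.8 and 65.1 CPM in WT mice on PLX5622. The change was -0.13 ± 0.08 with each inhibitor and did not pass (adjusted p = 0.733 and 0.770). In G793A mice it had 63.3, 82.0, 78.9 and 66.6 CPM on control chow, 56.6, 66.3, 52.8 and 59.2 CPM on PLX3397, and 61.8, 61.2, 60.9 and 60.8 CPM on PLX5622.

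Both G793A inhibitor groups lay below all WT controls in Cxcl12, and so did WT mice on PLX5622. For the G793A groups the difference was -0.27 ± 0.08 with PLX3397 (adjusted p = 0.438) and -0.22 ± 0.08 with PLX5622 (adjusted p = 0.606). Against G793A controls it was -0.31 ± 0.07 with PLX3397 (adjusted p = 0.281) and -0.25 ± 0.07 with PLX5622 (adjusted p = 0.154). The G793A PLX5622 libraries lay below all G793A controls, while those on PLX3397 overlapped them. None of these differences passed in edgeR. The summed level of 12 endothelial and mural markers was 318 to 370 CPM in G793A controls, 271 to 347 CPM on PLX3397 and 289 to 322 CPM on PLX5622, with overlap, and none was at 0. Their part in the Cxcl12 values was not tested.

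Cxcr4, the receptor of Cxcl12, had 1.95, 1.49 and 1.83 CPM in WT controls, and its 23 values ran from 0.968 CPM in a WT PLX3397 library to 2.69 CPM in a G793A control. Its group means overlapped within their SDs, and its change was -0.04 ± 0.24 with PLX3397 and 0.08 ± 0.24 with PLX5622 in WT mice (adjusted p = 0.985 and 0.979). Cxcl16 had 1.24, 1.07 and 1.81 CPM in WT controls and 0.771 to 1.56 CPM elsewhere. Its change was -0.35 ± 0.26 with PLX3397 and -0.45 ± 0.26 with PLX5622 in WT mice (adjusted p = 0.793 and 0.735). The 95% interval of the latter ran from -0.99 to 0.09. In every other comparison between groups neither gene passed.

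Between G793A and WT mice on control chow, 0 of the 8 genes passed in edgeR and 0 had an unadjusted p under 0.05. Of all genes 0% passed there. The unadjusted p was under 0.05 for 1803 genes, and 0 were called by DESeq2 or by limma-voom. Without G793A control replicate 2, 375 genes passed in edgeR, and still 0 of the 8. Against WT controls, 0 of the 8 passed in G793A mice on PLX3397, where 0.00617% of all genes passed, and 0 of 8 on PLX5622, where 0% passed (1095 genes at an unadjusted p under 0.05, 8 by DESeq2, 1 by limma-voom). At an unadjusted p under 0.05 were 3 of the 8 on PLX3397 (Ccl3, Ccl4 and Cxcl12), where 1173 of the 16209 genes were. On PLX5622 it was 1 of the 8 (Cxcl12). Without the 4 libraries with high Fos and Npas4, which also held the highest Ccl3, Ccl3 on PLX3397 turned to -0.45 and Ccl4 was not tested.

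Against G793A controls, 0 of the 8 passed on PLX3397, where 0.00617% of all genes did, and 0 of 8 on PLX5622, where 0% did (2639 at an unadjusted p under 0.05, 146 by DESeq2, 0 by limma-voom). At an unadjusted p under 0.05 the same 3 genes, Ccl3, Ccl4 and Cxcl12, were counted on PLX3397, where 1899 of the 16209 genes were. On PLX5622 it was Cxcl12. Without the 4 libraries with high Fos and Npas4, which also held the highest Ccl3, Ccl3 stood at 0.49 on PLX3397 and Ccl4 was not tested. With DESeq2, Ccl3 (4.11, adjusted p = 0.0318) and Cxcl12 (-0.31, adjusted p = 0.0469) passed on PLX3397, where DESeq2 called 28 genes in all. These counts of all genes rested on 1 library: without G793A control replicate 2, edgeR called 23 genes on PLX3397 and 980 on PLX5622, with 0 of the 8 among them in either comparison. The 1 gene that edgeR called with all libraries on PLX3397 against either control was Pdgfra, a marker of oligodendrocyte precursors, at -0.54 ± 0.08 against each. It was named after its value was seen.

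The inhibitors were given at different doses, so their values are set side by side without a ranking of the compounds. In WT mice PLX5622 libraries had -1.10 ± 0.21 of Cx3cr1 relative to PLX3397 libraries (95% interval -1.54 to -0.67), with no overlap, yet the edgeR adjusted p over all genes was 0.207, and 0 of the 8 passed, where 0% of all genes did (664 at an unadjusted p under 0.05, 14 by DESeq2, 0 by limma-voom). Cx3cr1 was the 1 gene of the 8 with an unadjusted p under 0.05. DESeq2 called it (-1.11, adjusted p = 0.00159), and so did edgeR without WT PLX5622 replicate 1 (-1.28, adjusted p = 0.0405). In G793A mice Cx3cr1 differed between the inhibitors by -0.01 ± 0.18 (adjusted p = 0.995), and 0 of the 8 passed, where 0.00617% of all genes did. There, 2 of the 8, Ccl3 and Ccl4, were at an unadjusted p under 0.05, as were 1110 of the 16209 genes. Without the 4 libraries with high Fos and Npas4, which also held the highest Ccl3, Ccl3 turned to 0.91 and Ccl4 was not tested. The 1 gene called between the inhibitors in G793A mice was again Pdgfra (0.53 ± 0.08).

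**Figure D4:**
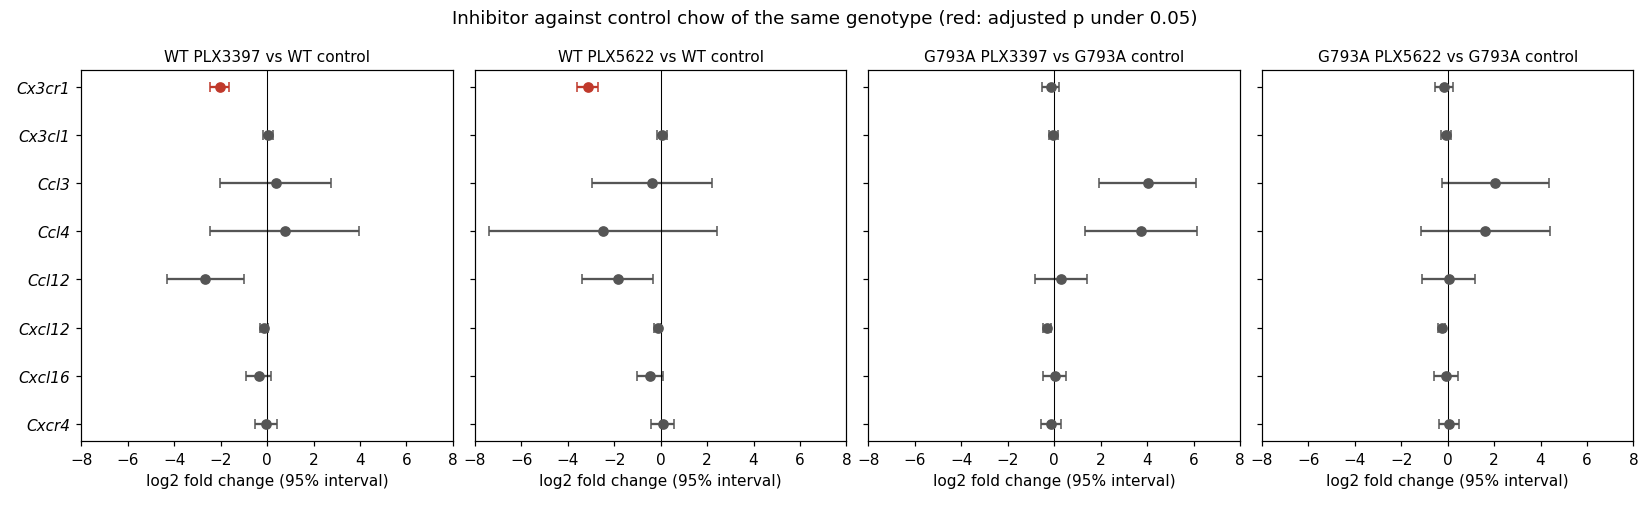
Log2 fold change (horizontal axis) of each of the 8 genes against control chow of the same genotype, with 95% intervals, in 4 panels for the 2 genotypes and 2 inhibitors, with red for an adjusted p under 0.05. Only Cx3cr1 in the 2 WT panels is red (-2.04 and -3.14), and the intervals of Ccl3, Ccl4 and Ccl12 are wide.

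Cx3cr1 was then placed beside the 12 microglia markers, each as a percent of its own WT control mean. With PLX3397 in WT mice Cx3cr1 kept 24.3% ± 5.33 (SD, n = 4), and the other 12 had a median of 22.0%, from 15.9% for the purinergic receptor P2ry13 to 75.3% for Sall1. With PLX5622 it kept 11.2% ± 4.42, against a median of 12.3% and a range from 7.14% to 74.8% with the same genes at the ends. Cx3cr1 ranked 8 of 13 from the lowest with PLX3397 and 6 of 13 with PLX5622. In G793A mice it kept 80.9% ± 8.57 with PLX3397 and 80.4% ± 8.49 with PLX5622, near the medians of 76.8% and 76.7%.

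A mean over markers gave another picture for PLX5622. Taken as log2 of CPM plus 0.1 and set against the mean of the 12 markers, Cx3cr1 stood 1.12 to 1.23 higher in WT controls, 0.99 to 1.20 higher in WT mice on PLX3397 and 0.54 to 0.94 higher in WT mice on PLX5622, so that the last group lay below the controls. Without Sall1 the ranges were 1.12 to 1.24, 1.16 to 1.32 and 0.74 to 1.16, and 3 of the 4 PLX5622 libraries (0.82, 0.84 and 0.74) still lay below every control, while replicate 3 (1.16) overlapped them. Over the 23 libraries the genes closest in pattern to Cx3cr1 were Csf1r, Itgam, an integrin subunit of myeloid cells, and C1qa, a chain of complement C1q, with root-mean-square differences of 0.12, 0.17 and 0.17 on the log2 scale. For Ccl12 they were Spi1, which encodes PU.1, the oxidase subunit Ncf1 and the lipopolysaccharide co-receptor Cd14, at 0.80, 0.81 and 0.85.

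**Figure D5:**
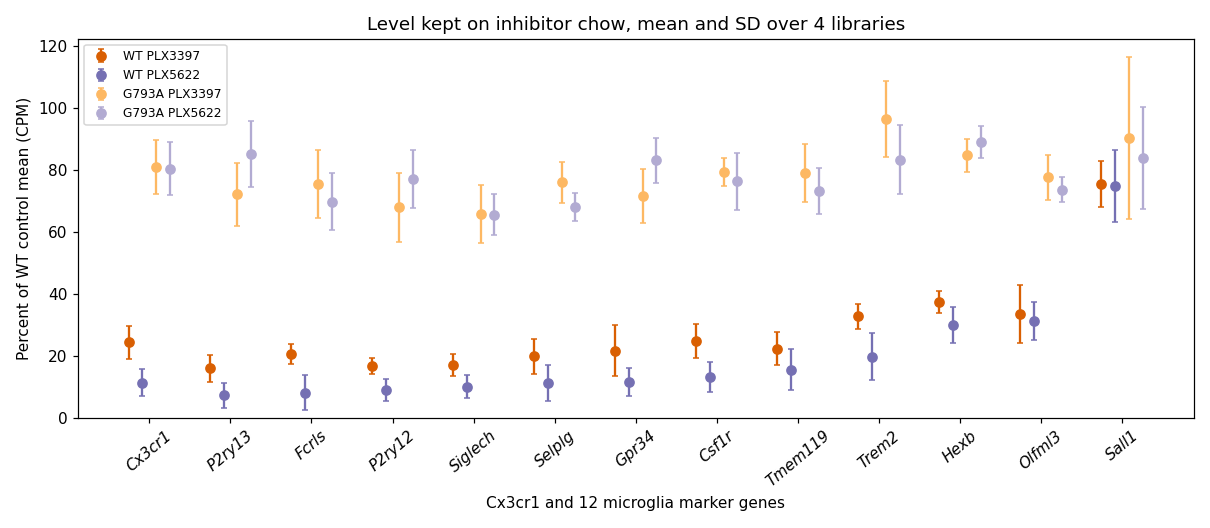
Percent of the WT control mean kept on inhibitor chow (vertical axis, mean and SD over 4 libraries) for Cx3cr1 and 12 microglia markers (horizontal axis), in WT and G793A mice. Cx3cr1 keeps 24.3% and 11.2% in WT mice, within the range of the markers, and about 80% in both G793A groups.

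Among 38 chemokine ligands, 22 could be tested and 9 had a mean of at least 1 CPM, and among 24 receptors 14 could be tested and 6 reached that level. A gene present only in one group can pass the filter through that group, so these counts do not describe all family members. Beyond the 8 genes, the ligands that fell in WT mice were Ccl9, a macrophage chemokine, and Pf4, a platelet and macrophage chemokine. Ccl9 had 1.97, 1.87 and 1.88 CPM in WT controls and 0.519, 0.617, 0.442 and 0.113 CPM with PLX3397. It fell by 2.16 ± 0.34 with PLX3397 (adjusted p = 0.000263) and by 1.84 ± 0.33 with PLX5622 (adjusted p = 0.00136). Pf4, at 0.446 to 0.733 CPM in WT controls and 0 to 0.0826 CPM in all 8 WT inhibitor libraries, fell by 3.69 ± 0.52 and 3.84 ± 0.54.

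Of the receptors, Ccr1 fell with PLX3397 only at the margin (-2.04 ± 0.52, adjusted p = 0.0474), and its call ended when any library of the comparison was left out (adjusted p between 0.0587 and 0.176). Its change with PLX5622 was -1.20 ± 0.48 (adjusted p = 0.418). In all, 2 of 22 ligands fell with each inhibitor in WT mice and 0 rose, where 1.49% of all genes fell with PLX3397 and 1.59% with PLX5622, with medians over the tested ligands of -0.08 and -0.12. In G793A mice 0 of the 22 passed in edgeR against G793A controls with either inhibitor. Ackr3 and Ccr2 did not pass in WT mice: Ackr3 was at -0.05 ± 0.11 and -0.26 ± 0.11, and Ccr2 at -1.18 ± 0.46 and -1.13 ± 0.46 (adjusted p = 0.406 and 0.434).

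The enzymes that cut Cx3cl1 and Cxcl16 from the membrane and the components that carry the receptor signal were read from a list of 20 genes, of which 19 were tested. With each inhibitor in WT mice 4 of 19 fell and 0 rose, with medians of -0.21 and -0.24. Of all genes tested, 1.52% passed with PLX3397 and 1.66% with PLX5622, and 1.49% and 1.59% fell. They were the protease Ctss (by 1.96 ± 0.20 and 2.74 ± 0.21), the phosphoinositide kinase subunit Pik3cg (1.74 ± 0.34 and 2.77 ± 0.37), the exchange factor Dock2 (1.65 ± 0.22 and 2.33 ± 0.23) and the GTPase Rac2 (1.41 ± 0.29 and 1.34 ± 0.29). All 4 are genes of leukocytes, and the microglia and border-associated macrophage markers given above moved with them, and their part was not tested. The fall of Rac2 with PLX5622 did not pass without WT PLX5622 replicate 4 (adjusted p = 0.0513), neither fall of Rac2 passed on the variance-stabilised values (limma, 0.121 and 0.0546), and that of Pik3cg with PLX3397 did not pass when the compared groups were fitted alone (0.0907). The sheddases Adam10 and Adam17, which release Cx3cl1, were at -0.05 ± 0.05 and -0.30 ± 0.15 with PLX3397 and at -0.02 ± 0.05 and -0.35 ± 0.15 with PLX5622 and did not pass. Ctss was higher in G793A than in WT mice by 1.55 ± 0.19 on PLX3397 and by 2.36 ± 0.20 on PLX5622. Dock2 was higher by 1.27 ± 0.21 and 2.00 ± 0.22, the former not passing when the compared groups were fitted alone (adjusted p = 0.0539).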

How the data were processed

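Poly(A) RNA from 23 brain libraries was sequenced, per the labels' protocols, on a NovaSeq instrument after extraction with the RNeasy mini kit and TruSeq stranded library preparation. Tools in the submitters' processing notes are kallisto 0.46.1, FastQC 0.11.9 and DESeq2 1.26.0, with build GRCm39. How transcripts were summed to genes, and how reads shared by related chemokine genes were split, those notes do not say. Estimated counts per gene symbol (expected counts), of which 45.3% are not whole, were deposited by the authors. An entry with a blank name, 0.00828 to 0.0151% of counts, was left out. The second deposited table, of log2 values after variance stabilisation, served only as an alternative.

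Counts were rounded and tested with edgeR 4.0.16 in R 4.3.3 (TMM scaling, filterByExpr with minimum count 10 and minimum total 15, robust quasi-likelihood fit with a term per group, two-sided, Benjamini-Hochberg adjustment over 16209 genes). The SE is the log2 fold change divided by the root of F. The common biological coefficient of variation was 0.0998. There were 13 comparisons, 2 of them interactions. Replicates differed beyond counting noise (chi-square per degree of freedom 6.06 to 76.3). Scripts were tested on simulated data. The 8 genes and the gene lists were chosen with earlier results of these data known. The named genes were the 8, Csf1r, further family and pathway genes past the threshold, of which 1 is not reported here, and, for genes with a passing test, the 3 genes closest in root-mean-square difference. Per-kilobase values use the longest protein-coding transcript of GENCODE M21, on GRCm38, matched by symbol, a choice made after a median length was seen to rest on short Cx3cl1 models. The motifs, the ranking against markers and the marker means were also chosen after values were seen, with 0.1 CPM as pseudocount. The deposited tables hold no coordinates. Only the promoter windows carry them, from RefSeq on GRCm38.p6.

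Alternatives were DESeq2 1.42.0, limma-voom (limma 3.58.1), RLE scaling, a filter at a mean of 1 CPM or none, a non-robust fit, a replicate block, fits of the compared groups alone, and omission of each library. Chosen after values were seen were limma on the deposited log2 values and omission of the 4 libraries with high Fos and Npas4. Those 4 also held the highest Ccl3 and Ccl4 counts.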

Additional observations from a re-analysis of the deposited data

Results flagged for a closer look

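Ccl4 in WT PLX3397 replicate 1 stood at 0.611 CPM, far from the nearest other library of its group at 0.0553 CPM. It was the only 1 of 45 groups of values examined for a stray library that had one, where chance gives about 1 in 20. This library was also high in Fos and Npas4.

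The effect of each inhibitor on Cx3cr1 differed between WT and G793A mice in the interaction test of edgeR, by 1.89 on the log2 scale for PLX3397 and by 2.98 for PLX5622. All 4 WT libraries per inhibitor were below all 3 WT controls, whereas G793A inhibitor and control libraries overlapped.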

How the results depend on the processing

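The fall of Cx3cr1 with each inhibitor in WT mice (17 alternatives each), its excess in G793A over WT mice on each inhibitor (18 each) and both interactions (25 each) passed under every alternative run. The count of 2 genes on PLX3397 between genotypes became 1 with the filter at a mean of 1 CPM, the replicate block, limma-voom, the compared groups alone, the variance-stabilised values and without the 4 libraries with high Fos and Npas4, and ranged from 1 to 2 with a library left out. Ccl12 was lost there (adjusted p = 0.0539 with the block). Under the 1 CPM filter, with the compared groups alone and in the variance-stabilised table it was not tested, so these 3 settings give it no value. With DESeq2 the count in G793A mice on PLX3397 against G793A controls rose from 0 to 2, where DESeq2 called 28 genes in all. That between inhibitors in WT mice rose from 0 to 1, where it called 14, and this count ranged from 0 to 1 with a library left out. The cause was not tested. Nothing in the labels says that replicate numbers pair libraries. Residuals correlated at a median of 0.00664 over 55 same-numbered pairs and 0.00267 over 165 others. Such medians cannot exclude a pairing of some libraries. The block changed no other count of the 8 genes.

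Receptor-to-ligand differences from WT controls were -1.54 (PLX3397) and -2.13 (PLX5622) on variance-stabilised values, against -2.11 and -3.30 from counts. That scale compresses low counts by construction.

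Directions turned only for values that had not passed. On variance-stabilised values this was Cxcl12 in WT mice on PLX5622 (0.000129). Without the 4 libraries they were Ccl3 in WT mice on PLX3397 (-0.80), and on PLX5622 against PLX3397 in WT (0.42) and G793A mice (0.91). Likewise turned Ccl3 and Ccl12 in G793A mice on PLX3397 against WT controls (-0.45 and -0.37), Ccl12 and Cxcl16 against G793A controls (-0.50 and -0.24), and Cx3cr1 between inhibitors in G793A mice (0.17). The 4 libraries held the highest Ccl3 counts, so leaving them out lowers Ccl3 in their groups by construction. With 1 library left out, Ccl3 and Ccl4 in WT mice on PLX3397 ranged from -0.81 to 0.73 and from -1.38 to 1.63, and Ccl3 between inhibitors in WT mice from -1.23 to 0.42, the turns coming without WT PLX3397 replicate 1. A sign change smaller than the SE of a value that had not passed was not counted as a turn, a rule set after the main values were seen. Ccl3, Ccl4, Ccl12, Pf4 and Ccr1 could not be tested at the 1 CPM filter, nor Ccl12 and Ccr1 in the variance-stabilised table. Ccr1 also had no test when the WT groups of a comparison were fitted alone. Depth limits these low genes. Ccl3, Ccl4 and Ccl12 had at most 33 counts each outside G793A PLX3397 replicates 2 and 4.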
